A study of Mus musculus with 9 samples.

Results

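A set of 10 transcription factors that build the lens was followed in the E16.5 Atf4 null and wildtype lens transcriptomes: Pax6, Sox2, Foxe3, Tfap2a and Pitx3, which act early and in the epithelium, and Prox1, Maf, Sox1, Hsf4 and Gata3, which act in the differentiating fibers. These 10 genes were taken by symbol out of the 55416 Ensembl gene identifiers in the deposited count files, and all 10 passed the filter on low counts. Each library was made from the lens pair of a single embryo, with 4 Atf4 null and 5 wildtype littermates from heterozygous matings. The null allele was Atf4tm1Tow, a germline deletion in which a neomycin cassette replaced coding exons, so that ATF4 was missing from every cell of the embryo and not from the lens alone. Both genotypes shared the B6;129 mixed background, were given no treatment, and held both sexes: null replicate 3 and wildtype replicates 2 and 4 were female by their X- and Y-linked transcripts. The colony was not screened for the Bfsp2 deletion that 129 strains can carry.

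The vertebrate lens has a single layer of epithelium over its front face, and cells at its equator leave the cell cycle, elongate and fill with crystallins to become fibers. PAX6, a paired and homeodomain protein, and SOX2, an HMG box protein, act from the time the lens is specified, FOXE3, a forkhead protein, and TFAP2A, an AP-2 protein, are kept in the epithelium, and PITX3 is a homeodomain protein whose loss leaves the lens small. PROX1, MAF, SOX1, HSF4 and GATA3 act as cells leave the cycle, elongate and switch on crystallin and denucleation genes. ATF4 is a basic leucine zipper protein of the integrated stress response that activates amino acid transport and synthesis genes.

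Gene counts ranged from 8409779 to 8906996 in the wildtype and from 7440807 to 8696699 in the null libraries. Atf4, the targeted gene, ranged from 119 to 155 CPM (counts scaled to library size with TMM factors) in the wildtype and from 0.582 to 10.6 CPM in the null libraries. Wildtype replicate 5 stood apart: 7 skeletal muscle markers summed to 4038 CPM there and to between 1.80 and 14.4 CPM in the other wildtype libraries, and 8 periocular mesenchyme markers summed to 13695 against 51.6 to 110 CPM. The mesenchyme sum was 226 to 560 CPM in the null libraries. Retina markers also differed between the genotypes, since the summed level of 9 genes was 181 to 283 CPM in the wildtype and 327 to 808 CPM in the null libraries, and 5 of the 9, Rax and Atoh7 among them, rose. In these whole-lens samples, fewer cells of a type and less RNA per cell cannot be told apart. Lens markers were high in all 9 libraries, with 7 epithelial markers summing to at least 1633 CPM and 11 fiber markers to at least 9408 CPM. The fiber marker Lim2, whose locus the annotation marks as overlapping another, was listed at 0 in every library while the fiber gene Mip averaged 3033 CPM in the wildtype, so the 0 is not read as a level. Of the fiber markers, 3 of the 9 tested fell. None of 5 endothelial, 7 macrophage, 5 pigment cell and 5 proliferation markers passed the edgeR test. Of these, 4 endothelial and 0 of the others had an unadjusted p below 0.05. Of 5 erythroid markers 1 fell, and all 5 estimates were lower in the null lens, with unadjusted p of at most 0.0201 in edgeR.

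Foxe3 and Tfap2a fell in the Atf4 null lens, and the other 8 regulators did not pass the test in either direction. Both that fell are regulators of the epithelium, so 2 of 5 epithelial and 0 of 5 fiber regulators passed in edgeR. Among the fiber regulators Gata3 alone had an unadjusted p below 0.05, and 0 of 5 passed with DESeq2 or exactTest as well. Among all 14903 genes tested, 5.9% passed in either direction, 3.67% lower and 2.23% higher in the null lens. The median log2 fold change was -0.48 over the epithelial regulators and -0.25 over the fiber regulators, beside 0.00 over all genes tested. With 5 genes in each class, these medians are the values of Pitx3 and Prox1, neither of which passed. The difference between the classes was not tested.

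**Figure D1:**
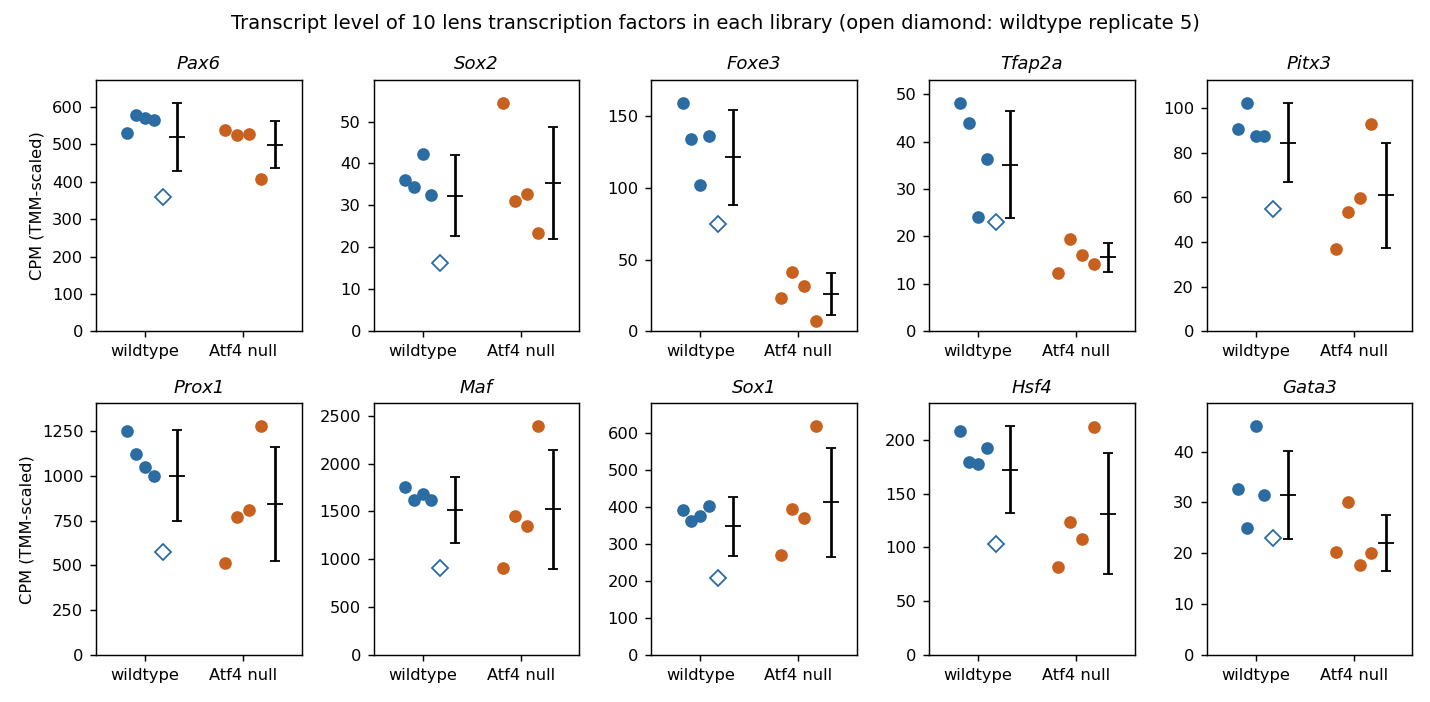
TMM-scaled CPM of each of the 10 regulators in 5 wildtype and 4 Atf4 null libraries (points), with the mean and SD of each genotype, on an axis from 0 for each gene. Foxe3 and Tfap2a are lower in all null libraries than in any wildtype library, and wildtype replicate 5 is the lowest wildtype library for all 10 genes.

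Foxe3 keeps the epithelium proliferating and is needed for the lens vesicle to close and separate. It measured 160, 134, 102, 136 and 74.9 CPM in wildtype replicates 1 to 5 and 23.1, 41.3, 31.9 and 7.13 CPM in null replicates 1 to 4. The groups did not overlap, and the highest null library was below the lowest wildtype library. The mean was 121 ± 33.1 CPM (SD, n = 5) in the wildtype and 25.9 ± 14.5 CPM (SD, n = 4) in the null lens. The edgeR quasi-likelihood test gave a log2 fold change of -2.23 (SE 0.38, 95% interval -3.03 to -1.42) with a Benjamini-Hochberg adjusted p of 0.00347, a level 4.68-fold lower. A two-sided exact permutation test over the 9 libraries gave p = 0.00794, the smallest value that 5 against 4 libraries allow. Foxe3 passed in all 18 alternatives, with log2 fold changes from -2.54 to -1.92.

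Tfap2a, needed in the lens epithelium for the vesicle to separate and for its cell adhesion, measured 48.3, 43.9, 24.2, 36.5 and 23.0 CPM in the wildtype and 12.4, 19.6, 16.1 and 14.3 CPM in the null libraries. The groups again did not overlap, but the gap was narrow, between 19.6 CPM in null replicate 2 and 23.0 CPM in wildtype replicate 5. The mean fell from 35.2 ± 11.4 CPM (SD, n = 5) to 15.6 ± 3.07 CPM (SD, n = 4), a 2.26-fold lower level. The log2 fold change was -1.17 (SE 0.26, 95% interval -1.73 to -0.62), with a Benjamini-Hochberg adjusted p of 0.0162 in edgeR and a two-sided exact permutation p of 0.0159. Tfap2a also passed in all 18 alternatives, where its log2 fold change ran from -1.30 to -1.03. The study instead named Ap2α, the product of Tfap2a, among lens transcription factors that it found unaffected. With edgeR exactTest, the test the study used, the Tfap2a adjusted p was 0.00185 here. CPM that did not overlap between genotypes were found for 2 of the 10 regulators, Foxe3 and Tfap2a, and for 10.2% of all genes tested (5.58% lower in the null lens). Other epithelial genes moved with Foxe3 and Tfap2a: of 7 lens epithelium markers, Cdh1, Gja1, Pdgfra and Sparc fell. Aqp1 was lower without overlap but missed the threshold (log2 fold change -1.25, Benjamini-Hochberg adjusted p = 0.0699, edgeR). Clu measured 569 CPM in the wildtype and 583 CPM in the null lens, and Sfrp1 1106 and 955 CPM. The summed level of the 7 was 2800 to 3413 CPM in the wildtype and 1633 to 2872 CPM in the null libraries, and its part in the result was not tested. Sums over 5 surface ectoderm and cornea markers were at most 4.68 CPM in all libraries other than wildtype replicate 5, where they reached 21.7 CPM.

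The RefSeq promoters of both genes that fell are shown with that of Pax6, which did not pass the test and, of the 8 regulators matched, alone held a full cyclic AMP response element there. Each runs from 250 bases before to 50 bases after a gene start, 5′ to 3′ on the strand of the gene, in the GRCm38.p6 build, with matches to a searched motif in capitals. Foxe3 lies at chr4:114926018-114926317 (minus strand), the 2 Tfap2a promoters at chr13:40734871-40735170 and chr13:40733746-40734045 (minus strand), and Pax6 at chr2:105668646-105668945 (plus strand).
Foxe3: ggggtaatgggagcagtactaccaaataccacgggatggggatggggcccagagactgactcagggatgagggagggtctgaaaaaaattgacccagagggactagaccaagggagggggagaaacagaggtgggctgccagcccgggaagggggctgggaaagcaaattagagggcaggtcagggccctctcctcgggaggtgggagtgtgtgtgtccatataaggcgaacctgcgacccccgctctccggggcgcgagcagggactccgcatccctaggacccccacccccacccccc
Tfap2a, first: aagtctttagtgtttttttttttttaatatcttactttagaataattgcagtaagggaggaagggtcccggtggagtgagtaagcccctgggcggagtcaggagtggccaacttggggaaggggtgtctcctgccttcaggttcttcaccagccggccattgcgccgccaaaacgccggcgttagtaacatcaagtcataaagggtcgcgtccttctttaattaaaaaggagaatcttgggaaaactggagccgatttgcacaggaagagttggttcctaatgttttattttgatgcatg
Tfap2a, second: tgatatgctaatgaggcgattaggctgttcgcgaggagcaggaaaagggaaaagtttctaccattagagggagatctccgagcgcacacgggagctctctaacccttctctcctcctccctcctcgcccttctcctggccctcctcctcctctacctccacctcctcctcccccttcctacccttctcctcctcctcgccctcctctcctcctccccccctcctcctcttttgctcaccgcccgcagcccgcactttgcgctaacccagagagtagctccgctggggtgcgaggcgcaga
Pax6: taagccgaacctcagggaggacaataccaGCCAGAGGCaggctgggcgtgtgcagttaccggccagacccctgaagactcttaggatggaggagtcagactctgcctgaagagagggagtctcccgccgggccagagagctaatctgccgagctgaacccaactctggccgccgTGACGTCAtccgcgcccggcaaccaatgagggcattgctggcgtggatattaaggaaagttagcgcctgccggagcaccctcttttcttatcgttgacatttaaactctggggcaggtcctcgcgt
RefSeq promoters were matched for 8 of the 10 regulators, 11 promoters in all, and those of Maf and Hsf4 were not matched. A set of 6 motifs was searched on both strands: the ATF4 and C/EBP composite element TGATGNAA, the cyclic AMP response element TGACGTCA, the MAF half-site TGCTGAC, the bicoid-type homeodomain site TAATCC, the heat shock core GAANNTTC and the AP-2 site GCCNNNGGC, none of which contains another. The composite element is the sequence that ATF4 binds as a dimer with C/EBP proteins, and it had no match in the 11 promoters, while 3.97% of 32817 promoters held it. TGACGTCA began 76 bases before the Pax6 start and was present in 1.79% of all promoters. GCCNNNGGC, present in 16.6% of all promoters, matched at 221 bases before the same Pax6 start, 134 before that of Pitx3 and at 3 places before that of Gata3. The Foxe3 and Tfap2a promoters held none of the 6 motifs in these windows.

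Pax6, the regulator at the head of eye development, measured 530, 578, 570, 565 and 360 CPM in the wildtype and 537, 525, 529 and 407 CPM in the null libraries. The groups overlapped, and within each genotype 1 library was low while the others lay close together. Its log2 fold change was -0.06 (SE 0.15), and the 95% interval of -0.38 to 0.27 was the narrowest of the 10 genes (Benjamini-Hochberg adjusted p = 0.89, edgeR). Elp4 lies on the opposite strand over 21.1% of the Pax6 exon bases and measured at most 33.6 CPM. Whether the counting used the strand is not given in the sources used here.

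Sox2, the HMG box partner of PAX6 in lens induction, measured 35.9, 34.4, 42.4, 32.4 and 16.4 CPM in the wildtype and 54.5, 31.1, 32.7 and 23.4 CPM in the null libraries. Both the highest value and the spread were larger in the null lens, and the groups overlapped. A non-coding gene of the annotation, Gm64654, lies on the opposite strand over 59.9% of the Sox2 exon bases and is not among the counted identifiers. The log2 fold change was 0.14 (SE 0.28, 95% interval -0.47 to 0.74; Benjamini-Hochberg adjusted p = 0.857, edgeR). Pax6 and Sox2 are also made in the embryonic retina, and both ranked the null libraries in the order of the retina marker sum, highest in replicate 1 (808 CPM for the markers), then replicate 3 (609), replicate 2 (549) and replicate 4 (327). Prox1, also a retinal gene, did not follow this order. The proliferation marker sum gave the same order, with 1267, 808, 753 and 363 CPM in null replicates 1, 3, 2 and 4. In the wildtype the order was not shared. The retina marker sum was lowest in replicate 1 (181 CPM), while Pax6 and Sox2 were lowest in replicate 5 (243 CPM for the markers). The part of retina RNA in the levels of Pax6 and Sox2 was not tested.

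Pitx3 measured 90.8, 102, 87.3, 87.3 and 54.6 CPM in the wildtype and 36.9, 53.6, 59.8 and 93.03 CPM in the null libraries. Null replicates 1 to 3 were below the 4 highest wildtype libraries, and null replicate 4 lay among these. The log2 fold change was -0.48 (SE 0.24, 95% interval -0.99 to 0.03; Benjamini-Hochberg adjusted p = 0.295, edgeR). Without null replicate 4 it was -0.76 (adjusted p = 0.0562, edgeR), and without null replicate 1 it was -0.29 (adjusted p = 0.532, edgeR).

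**Figure D2:**
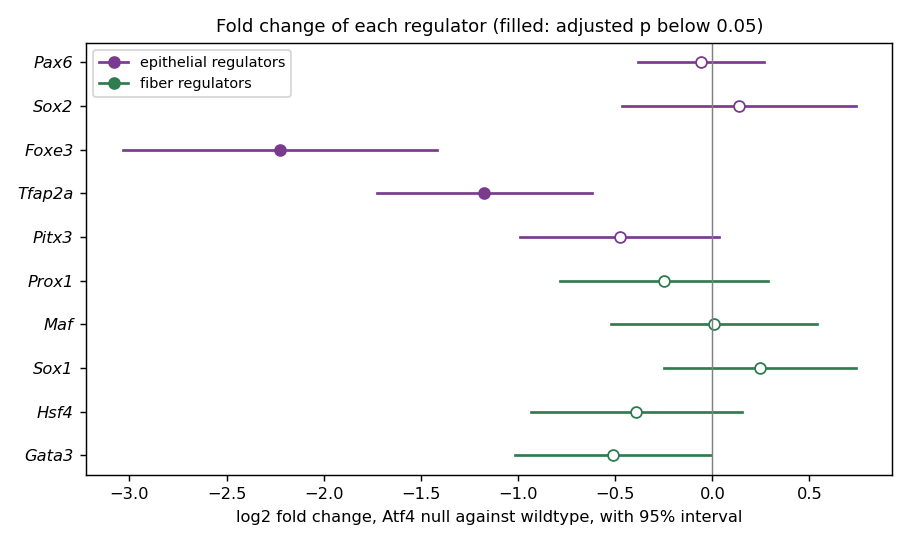
Log2 fold change of each regulator, Atf4 null against wildtype, from edgeR (points; filled where the Benjamini-Hochberg adjusted p was below 0.05) with 95% intervals (lines), by class. The intervals of Foxe3 and Tfap2a end at -0.62 or lower, and those of the other 8 genes reach -0.01 or higher.

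Among the fiber regulators, Prox1, the homeodomain protein that drives fiber elongation and cell cycle exit, measured 1251, 1123, 1050, 1002 and 578 CPM in the wildtype and 511, 772, 808 and 1278 CPM in the null libraries. Maf, the large Maf protein that activates crystallin genes, measured 1753, 1622, 1683, 1617 and 906 CPM against 914, 1449, 1343 and 2391 CPM. Both ranges in the null lens spanned most of the wildtype values. The log2 fold changes were -0.25 for Prox1 (SE 0.25, 95% interval -0.78 to 0.28) and 0.01 for Maf (SE 0.25, 95% interval -0.52 to 0.54), with Benjamini-Hochberg adjusted p of 0.657 and 0.993 in edgeR. The Maf estimate was below 0 in 4 of 18 alternatives.

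Sox1, which fibers need to elongate and to make gamma crystallins, measured 391, 362, 374, 402 and 208 CPM in the wildtype and 270, 393, 368 and 617 CPM in the null libraries. Null replicates 1 to 3 lay inside the wildtype range, and replicate 4 was above it. Hsf4, the heat shock factor behind fiber denucleation, measured 208, 179, 178, 193 and 103 CPM against 81.4, 124, 108 and 212 CPM. Its first 3 null libraries were below all wildtype libraries other than replicate 5. The log2 fold changes were 0.25 for Sox1 (SE 0.23, 95% interval -0.25 to 0.74) and -0.39 for Hsf4 (SE 0.25, 95% interval -0.94 to 0.15), with Benjamini-Hochberg adjusted p of 0.633 and 0.442 in edgeR. The Hsf4 value was -0.72 without null replicate 4 (adjusted p = 0.0664, edgeR) and -0.21 without null replicate 1 (adjusted p = 0.709, edgeR).

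Gata3, which fibers need to leave the cell cycle, measured 32.6, 25.1, 45.0, 31.5 and 22.9 CPM in the wildtype and 20.2, 30.1, 17.7 and 20.1 CPM in the null libraries. The groups overlapped only through null replicate 2. The log2 fold change was -0.51 (SE 0.23, 95% interval -1.02 to -0.01), with an unadjusted p of 0.0475 and a Benjamini-Hochberg adjusted p of 0.248 in edgeR. Gata3 passed in 0 of 18 alternatives.

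Pitx3, Prox1, Maf, Sox1 and Hsf4 shared a pattern across libraries. Each was lowest in null replicate 1 and highest in null replicate 4 among the null libraries. The summed level of the 11 fiber markers had the same ends, with 9408 CPM in null replicate 1, 14796 in replicate 2, 14222 in replicate 3 and 21337 CPM in replicate 4. The 5 proliferation markers ran the other way, with sums of 1267 CPM in null replicate 1 and 363 CPM in null replicate 4 and 685 to 849 CPM in the wildtype. In wildtype replicate 5 all 10 regulators were at 45.2% to 68.3% of the mean of the other 4 wildtype libraries, and the fiber marker sum was 13389 CPM against 22238 to 25477 CPM. With wildtype replicate 5 left out, Foxe3 and Tfap2a were again the only members of the 10 to pass.

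**Figure D3:**
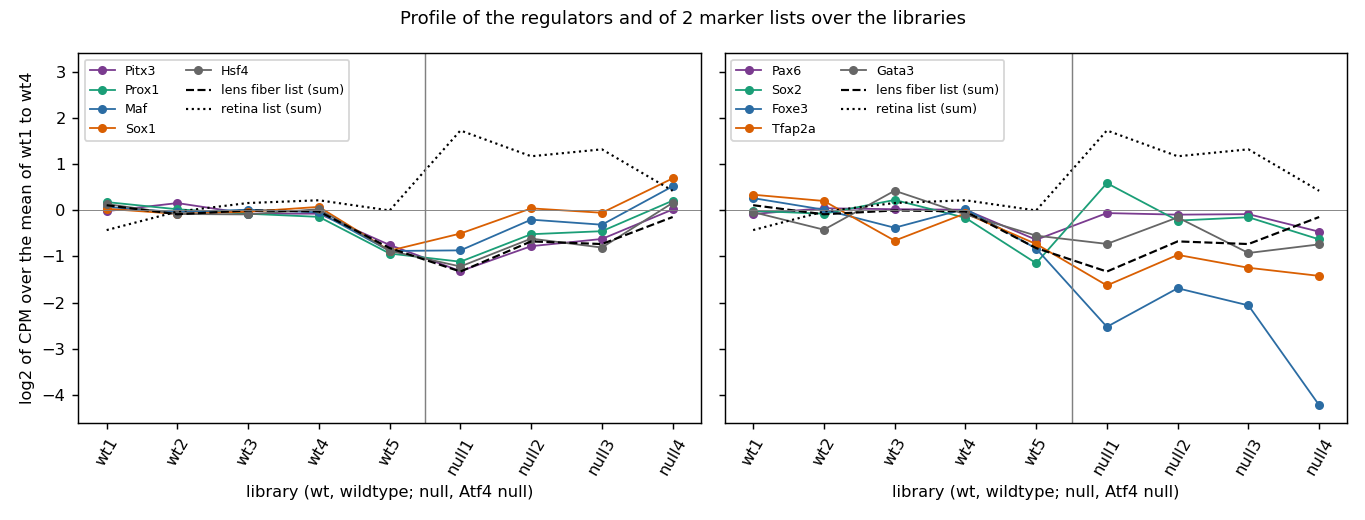
Log2 of the CPM of each regulator, and of the summed fiber and retina markers, over their mean in wildtype replicates 1 to 4, in each of the 9 libraries, with lines that only link the values of a gene or list. Pitx3, Prox1, Maf, Sox1 and Hsf4 are lowest in null replicate 1 and highest in null replicate 4 among the null libraries, while Pax6 and Sox2 are highest in null replicate 1 and lowest in null replicate 4.

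Within a library, the ratios of these 5 genes to Maf varied less than their CPM. The ratios were chosen after the values were seen and are given as a description, without a test. Hsf4 per Maf was 0.114 ± 0.00566 (SD, n = 5) in the wildtype and 0.0859 ± 0.00392 (SD, n = 4) in the null lens. Pitx3 per Maf was 0.0562 ± 0.00519 against 0.0402 ± 0.00318, and Prox1 per Maf was 0.658 ± 0.0428 against 0.557 ± 0.0321. Sox1 per Maf went the other way, at 0.2295 ± 0.0112 in the wildtype and 0.275 ± 0.0153 in the null lens. None of these 4 ratios overlapped between genotypes. Relative to the same library's Maf or Sox1, then, Hsf4, Pitx3 and Prox1 were lower in every null library than in any wildtype library, although their CPM overlapped. Ratios among Pitx3, Prox1 and Hsf4 overlapped.

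Foxe3 per Maf was 0.0803 ± 0.0114 in the wildtype and 0.0201 ± 0.0116 in the null lens, and did not overlap between genotypes. Of the 9 ratios to Maf 6 did not overlap, where 4.51% of all genes tested had a ratio to Maf that did not overlap. Of the 9 ratios to Sox1, 6 did not overlap, beside 6.75% of all genes. Both counts include Foxe3 and Tfap2a, whose CPM already did not overlap between genotypes. Maf and Sox1 were picked as denominators after the values were seen, and apart from Foxe3 (9 of 9) they gave the highest counts. Ratios to Tfap2a did not overlap for 4 of 9 regulators, and those to Pitx3, Prox1 or Hsf4 for 3. Those to Pax6 did not overlap for 2 and those to Sox2 or Gata3 for 1. Of all 45 pairs 19 did not overlap, and 9 of these hold Foxe3. Shares over all genes were not computed for these denominators or pairs, so their counts are not read as a result.

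**Figure D4:**
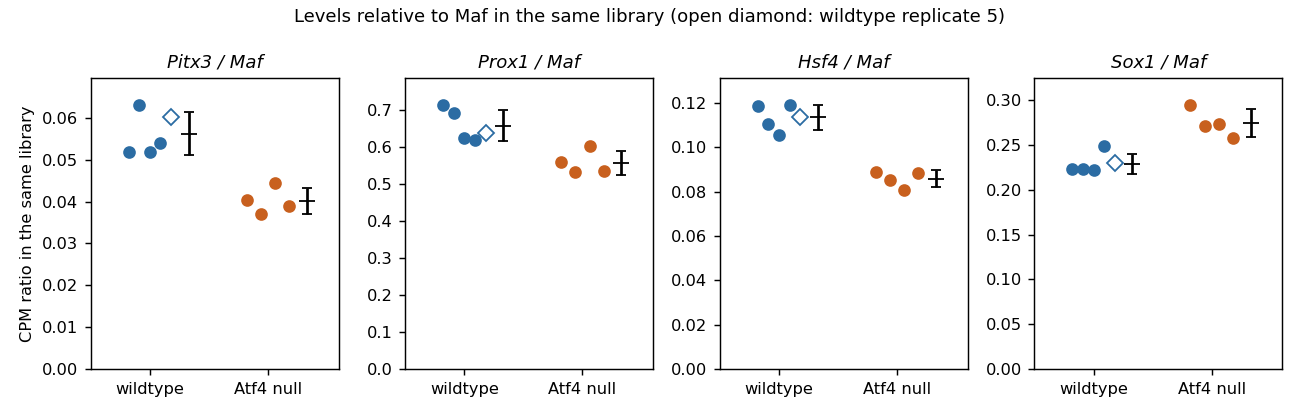
CPM of a regulator divided by the CPM of Maf in the same library (points), with the mean and SD of 5 wildtype and 4 Atf4 null libraries, on an axis from 0. Wildtype replicate 5 lies with the other wildtype libraries here, and Hsf4, Pitx3 and Prox1 per Maf lie lower in the null lens while Sox1 per Maf lies higher.

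Sox2 and Sox1 each sit inside a long non-coding gene on the same strand, Sox2ot and Sox1ot, whose exons share no base with theirs, and both non-coding genes fell. In GRCm39, Sox2 (chr3:34704554-34706610) lies within Sox2ot (chr3:34158419-34789489), and Sox1 (chr8:12445295-12450126) lies within Sox1ot (chr8:12373650-12486768), all on the plus strand. Sox2ot measured 147, 123, 116, 119 and 85.6 CPM in the wildtype and 28.9, 40.1, 31.0 and 27.1 CPM in the null libraries. Sox1ot measured 234, 236, 243, 207 and 134 CPM against 39.1, 73.4, 76.9 and 103 CPM. Neither overlapped between genotypes. The log2 fold change was -1.90 for Sox2ot (SE 0.17; Benjamini-Hochberg adjusted p = 3.49e-05, edgeR) and -1.53 for Sox1ot (SE 0.25; adjusted p = 0.00244), and both passed in all 18 alternatives.

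Set against the coding gene inside it, Sox2ot was 3.86 ± 0.903 times the Sox2 CPM in the wildtype and 0.981 ± 0.332 times in the null lens. Sox1ot was 0.611 ± 0.0584 times the Sox1 CPM and 0.177 ± 0.0273 times in the null lens. Neither ratio overlapped between genotypes. The CPM of the host genes thus parted from those of Sox2 and Sox1, whose own differences did not pass the test. These ratios were computed after the values were seen and were not tested.

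**Figure D5:**
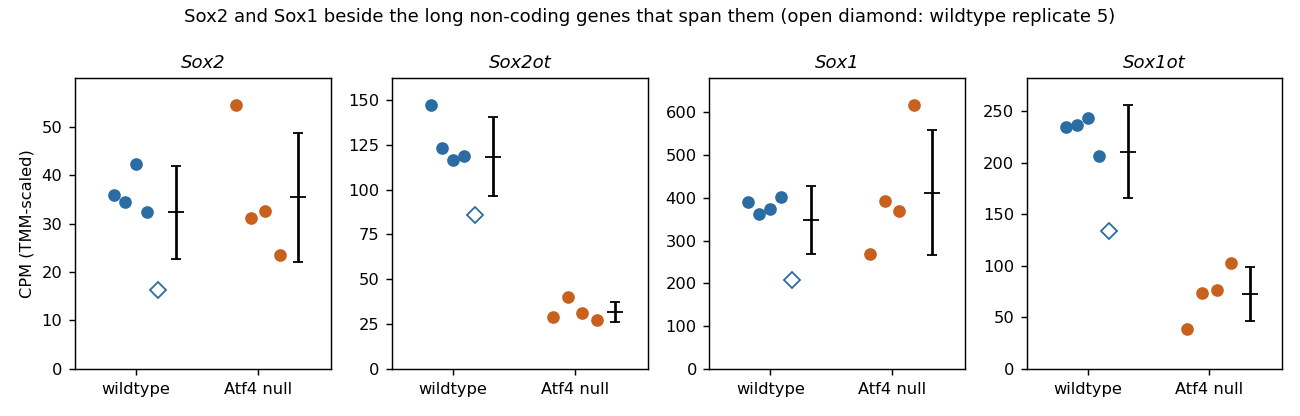
TMM-scaled CPM of Sox2, Sox2ot, Sox1 and Sox1ot in 5 wildtype and 4 Atf4 null libraries (points), with the mean and SD of each genotype, on an axis from 0 for each gene. Sox2ot and Sox1ot are lower in all null libraries than in any wildtype library, while Sox2 and Sox1 overlap.

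Levels of the 10 genes can be set against each other only per base of exon, as CPM per kilobase of exon (FPKM). In the wildtype lens Maf was highest at 163 ± 37.3 FPKM (SD, n = 5), followed by Foxe3 at 140 ± 38.2, Prox1 at 112 ± 28.4, Sox1 at 71.9 ± 16.4 and Hsf4 at 69.0 ± 16.2 FPKM. Pax6 at 32.4 ± 5.71, Pitx3 at 23.5 ± 4.95, Sox2 at 15.7 ± 4.69, Tfap2a at 7.18 ± 2.32 and Gata3 at 6.90 ± 1.90 FPKM made up the lower part of the order. Among neighbours in the order, the ranges over libraries failed to overlap only between Hsf4 and Pax6. In the null lens Foxe3 stood at rank 6, at 29.8 ± 16.7 FPKM (SD, n = 4), next to Pax6 at 31.1 ± 3.88 and Sox2 at 17.2 ± 6.49 FPKM. Maf, Prox1, Sox1 and Hsf4 were the top 4 there, at 164, 93.9, 85.3 and 52.6 FPKM, and the bottom 3 were Pitx3, Gata3 and Tfap2a at 16.9, 4.84 and 3.18 FPKM. Among null neighbours, only the ranges of Pitx3 and Gata3 did not overlap.

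The length used sets part of this order. The Foxe3 gene model (chr4:114782344-114783210, minus strand, GRCm39) has 867 bases in 1 coding exon, shorter than the 1625 bases of the RefSeq gene, and the Pax6 models cover 16047 exon bases (chr2:105499234-105530952, plus strand). With the canonical transcript in place of all exons, a choice made after the values were seen, Maf was at 382 FPKM in the wildtype and Pax6 moved from rank 6 to rank 4 at 89.6 FPKM. The Foxe3 value was the same by construction, since its gene model has a single transcript length. In the null lens the same choice put Pax6 at rank 3 (85.9 FPKM), Pitx3 at rank 6 (31.4 FPKM) and Foxe3 at rank 7, and Sox2, Gata3 and Tfap2a were then the lowest.

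Among all genes tested, Foxe3 stood at the 99.2 percentile of FPKM in the wildtype and the 95.01 percentile in the null lens, and Tfap2a at 73.3 and 51.1. Maf, Prox1, Sox1 and Hsf4 stood above the 97 percentile in both genotypes. The genes whose library-to-library pattern was closest to that of Foxe3, by the root mean square difference of centred log2 CPM over 9 libraries, were Gm33732 (0.321), Prrt4 (0.410) and Tacr1 (0.413). For Tfap2a they were Ppp1r16b (0.207), Pde4d (0.208) and Edaradd (0.208). Gm33732, the closest to Foxe3, was near the floor, at 2.57 CPM in the wildtype and 0.369 CPM in the null lens. It did not pass (Benjamini-Hochberg adjusted p = 0.0908, edgeR).

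Of 22 other transcription factors of lens development, 21 passed the filter on low counts, and 2 passed the test, Eya1 lower and Tfap2b higher, beside 5.9% of all genes tested. The count was 0 in edgeR without wildtype replicate 2, 3 or 4. Eya1, a transcriptional coactivator, measured 25.4, 32.0, 44.6, 35.1 and 26.7 CPM in the wildtype and 11.9, 20.3, 20.1 and 13.8 CPM in the null libraries, with no overlap (log2 fold change -0.99, SE 0.23; Benjamini-Hochberg adjusted p = 0.0247, edgeR). Tfap2b, the AP-2 paralog of Tfap2a, measured 2.82, 2.71, 6.67, 2.03 and 12.3 CPM against 35.2, 25.6, 20.2 and 6.70 CPM (log2 fold change 2.04, SE 0.54; adjusted p = 0.0416, edgeR). Tfap2a and Tfap2b thus passed in opposite directions, although null replicate 4 lay inside the wildtype range for Tfap2b. Tfap2b is also made in the retina. Its null levels were highest and lowest in the libraries with the highest and lowest retina and proliferation marker sums. Null replicates 2 and 3 came in the other order. The part of retina RNA in Tfap2b was not tested. Eya1 passed in 13 and Tfap2b in 10 of 18 alternatives. With single libraries left out, Eya1 missed the threshold without wildtype replicate 2, 3 or 4 or null replicate 1 or 4 (adjusted p 0.0527 to 0.0678, edgeR), and Tfap2b without wildtype replicate 1, 2, 3 or 4 or null replicate 1, 2 or 3 (0.0796 to 0.12).

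Sox11 (94.6 ± 23.6 against 188 ± 102 CPM) and Lhx2 (45.7 ± 8.79 against 83.1 ± 31.9 CPM) had higher means in the null lens and missed the threshold, with Benjamini-Hochberg adjusted p of 0.0662 and 0.0566 in edgeR. Both genes ranked the null libraries in the order of the retina marker sum. Levels ran from 332 CPM for Sox11 and 117 CPM for Lhx2 in replicate 1 to 91.4 and 40.5 CPM in replicate 4. Lhx2 is 1 of the 9 genes in that sum, so its order is partly built in. The proliferation marker sum gave the same order of null libraries. The part of retina RNA in these differences was not tested. Estimates were higher in the null lens for 13 of the 21, these retinal genes among them, and the median log2 fold change was 0.28.

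Of 15 genes that lens studies place downstream of these regulators, 9 fell and 0 rose, beside 3.67% lower and 2.23% higher of all genes tested, and the median log2 fold change was -0.998. The count called ran from 7 to 12 over the 18 alternatives. Of the 9, Pdgfra and Cdh1 are also in the epithelium marker list and Bfsp1 and Dnase2b in the fiber marker list, so these counts are not independent. The study of these same libraries already reported Cdh1, Dnase2b, Bfsp1, Crygb, Crygc, Crygd and Crygf as lower. The list was chosen with such results known, so the contrast with all genes is a description and not independent support. Pdgfra, the receptor for a lens epithelial growth factor downstream of FOXE3, measured 210 ± 31.9 CPM in the wildtype and 20.2 ± 9.09 CPM in the null lens (log2 fold change -3.36, SE 0.31). Cdh1, the epithelial cadherin downstream of TFAP2A, measured 178 ± 29.2 and 13.9 ± 6.42 CPM (log2 fold change -3.68, SE 0.30). Both estimates were further below 0 than those of Foxe3 and Tfap2a, a difference that was not tested. Foxe3 per Pdgfra was 0.882 to 1.70 in the null libraries and 0.291 to 0.758 in the wildtype libraries, higher in every null library. Tfap2a per Cdh1 was also higher in every null library, at 0.942 to 2.21 against 0.119 to 0.256. Foxe3 per Cdh1 overlapped, through null replicate 4 (0.551, with the other null libraries at 1.94 to 4.14 and the wildtype at 0.502 to 0.809). These ratios were chosen after the values were seen and were not tested.

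Genes downstream of the fiber regulators were among those that fell. Cdkn1c, a cell cycle inhibitor downstream of PROX1, measured 1642 ± 145 CPM in the wildtype and 656 ± 131 CPM in the null lens (log2 fold change -1.32, SE 0.15). Dnase2b, the nuclease that HSF4 drives for denucleation, measured 88.4 ± 20.3 and 23.98 ± 9.50 CPM (log2 fold change -1.89, SE 0.27). Bfsp1, a beaded filament gene, measured 6990.5 ± 1524 and 2615 ± 1057 CPM (log2 fold change -1.42, SE 0.25). Of the 6 gamma crystallin genes linked to SOX1, Crygb, Crygc, Crygd and Crygf fell, with log2 fold changes of -1.41, -0.95, -0.998 and -1.31, and Cryga and Cryge missed the threshold at -0.43 and -0.47. These near-identical copies can trade reads, and Crygc and Crygd passed in 10 and 12 of 18 alternatives. Both missed the threshold in edgeR without wildtype replicate 1, 2, 3 or 4 or null replicate 2 or 3, and Crygc also without null replicate 1, with adjusted p of at most 0.109. Cryaa, Cryab and Crybb1, which PAX6, MAF and PROX1 act on, and Cdkn1b were also among the 6 that missed it.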

How the data were processed

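Lens pairs of single embryos were sequenced from a stranded total RNA kit (Takara SMARTer Stranded Pico). According to the methods of the study, the authors trimmed reads with Trim Galore, removed ribosomal reads with HISAT2, aligned the rest to GRCm39 (the aligner of this step is not given in the sources used here), and deposited raw HTSeq counts per Ensembl gene, 1 file per library. Entries that name no gene held 44.6% to 47.7% of each file and were left out. Symbols, positions and exon lengths came from a GENCODE annotation of GRCm39 that matched 54749 of 55416 identifiers, and the unmatched ones held 0.033% of the counts. The 10 regulators and the lists were chosen with earlier results of these data known.

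Counts were tested with the edgeR quasi-likelihood test (edgeR 4.0.16, R 4.3.3) over all 9 libraries, with TMM factors, filterByExpr, no covariate and Benjamini-Hochberg adjustment over 14903 genes at a threshold of 0.05. "Rose" and "fell" are used of genes that passed. CPM are TMM-scaled, and errors are SD. FPKM divide them by the length of all annotated exons. Intervals are 95% intervals of the fitted coefficient. The embryo was the replicate. The 18 alternatives were DESeq2 1.42.0, edgeR exactTest, a robust fit, library size scaling, TMM factors without crystallins, no filter, at least 10 counts in every library, a replicate block, sex as a covariate and leaving out each library. No pair of libraries agreed within counting noise. For the wildtype, titles and file names number the libraries differently, which leaves the genotype untouched and the replicate number unsure. Named genes were the 10 regulators, members of the lists, Atf4, genes whose span overlaps a regulator and, for those that passed, the 3 genes closest in pattern. The fits were checked on simulated data. The precision of each value is limited by the number of embryos. Some members of the lists are counted but not reported here by name.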

Additional observations from a re-analysis of the deposited data

Results flagged for a closer look

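Within-group outliers were sought by Dixon's test in the 20 groups made by 10 regulators and 2 genotypes, and chance alone would mark about 1 in 20 groups. Here 5 values were marked. Wildtype replicate 5 was the low value for Pax6 (360.02 CPM), Maf (905.52 CPM), Sox1 (208.39 CPM) and Hsf4 (103.12 CPM), which are not independent since they come from a single library. Null replicate 4 was the low value for Pax6 (406.5 CPM). This library held the lowest retina and proliferation marker sums of the null libraries, 327 and 363 CPM. Its retina sum was above the wildtype range of 181 to 283 CPM. The part of either in the Pax6 value was not tested.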

How the results depend on the processing

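Foxe3 and Tfap2a passed in all 18 alternatives, with edgeR or DESeq2 adjusted p from 2.53e-07 to 0.0265 and from 0.000381 to 0.0466, and 2 of 10 regulators passed in each. Of 180 member fold changes under the alternatives, 170 kept their direction and side of the threshold and 10 changed sign, none of which passed. With library size in place of TMM factors Pax6 was 0.086, the median of all genes moved to 0.12, and 790 genes were higher and 439 lower, against 333 and 547. With at least 10 counts in every library Maf was -0.0021. Same-numbered libraries of the 2 genotypes share only a number (correlations -0.13, -0.02, -0.02 and 0.01). With the replicate block Sox2 was -0.10 and Maf was -0.22, 280 genes were higher and 572 lower, and the same count of 2 regulators passed. Leaving out each library in turn gave log2 fold changes from -0.16 to 0.024 for Pax6, -0.15 to 0.29 for Sox2, -0.30 to 0.20 for Maf and -0.018 to 0.41 for Sox1. Genes called numbered 880, 1397 with DESeq2, and 527 (without null replicate 2) to 1207 (without wildtype replicate 5) with a library left out. The other lens transcription factors called numbered 4 with DESeq2, 5 with exactTest, 1 with the robust fit, 5 with library size, 5 with no filter, 4 with at least 10 counts, and 0 to 4 with a library left out. It was 0 without wildtype replicate 2, 3 or 4, against 2. The causes were not tested. Foxe3 in null replicate 4 rests on 49 counts.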
